A study of Mus musculus with 3 samples.

Results

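The NK-type lectin receptors are transmembrane proteins of the C-type lectin fold, named for natural killer (NK) cells and encoded side by side in the NK gene complex on mouse chromosome 6. The list held 10 genes: Klrd1, Klrk1, Klrc1, Klrc2, Klrb1c, Klre1, Klra8, Klra7, Klra3 and Klrb1f. Members were all probe sets annotated to 1 of these symbols alone, which gave 11 probe sets of 8 genes, of 45101 probe sets and 18193 singly named genes in all. Klrb1c and Klra3 had no such probe set and were read only from probe sets that name a second gene, which are given apart.

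RNA came from follicular regulatory T (Tfr) cells sorted from spleens of C57BL/6 mice at day 8 after OVA immunization. The 2 Rptor-null arrays each held RNA from a pool of 8 mice carrying CD4-Cre and Rptor fl/fl, and the WT array held RNA from 1 pool of 4 wild-type mice. CD4-Cre acts in cells of the T lineage, so that other cells of these mice keep Rptor, the gene of raptor, the scaffold subunit of the mTORC1 kinase. Whether the wild-type mice carried Cre or the floxed allele, and the age and sex of the mice, were not given. Cells were sorted after lineage depletion by staining for CD4, CD44, GITR, CD25 and CXCR5.

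These receptors let lymphocytes read class I and class I-like molecules on other cells. CD94, the product of Klrd1, pairs with NKG2 proteins to bind Qa-1, and inhibitory members recruit phosphatases while activating members signal through the adaptors DAP12, DAP10 or the Fc receptor gamma chain. NKG2D (Klrk1) binds stress-induced ligands, the Ly49 receptors (Klra genes) bind class I molecules, and NKR-P1 receptors (Klrb1 genes) bind Clr proteins encoded in the same complex. They are best known on NK cells, and some T cells carry them after activation.

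In RefSeq annotation of GRCm38.p6 the 10 genes lay on chromosome 6, from Klrb1c (chr6:128778485-128788641) to Klra3 (chr6:130323289-130337626). The Klra genes are close relatives, and the 250 bases before a RefSeq transcript start of Klra8, Klra7 and Klra3 are shown for comparison, since the Klra8 and Klra7 probe sets lay on opposite sides of WT. All are on the minus strand, Klra8 at chr6:130129899-130130148, Klra7 at chr6:130233323-130233572 and Klra3 at chr6:130337627-130337876. The same stretch of Klrb1c (chr6:128788642-128788891, minus strand), the gene of the NK1.1 antigen, is shown because it holds a motif that the Klra stretches lack. Capitals mark a match to TGTGGT, the core of RUNX sites, on either strand, and the sequences are from RefSeq, read 5′ to 3′.
Klra8: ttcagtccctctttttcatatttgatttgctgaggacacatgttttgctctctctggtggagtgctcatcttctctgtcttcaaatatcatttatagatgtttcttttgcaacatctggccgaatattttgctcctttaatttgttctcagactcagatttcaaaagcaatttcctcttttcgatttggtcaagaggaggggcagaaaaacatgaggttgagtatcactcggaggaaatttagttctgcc
Klra7: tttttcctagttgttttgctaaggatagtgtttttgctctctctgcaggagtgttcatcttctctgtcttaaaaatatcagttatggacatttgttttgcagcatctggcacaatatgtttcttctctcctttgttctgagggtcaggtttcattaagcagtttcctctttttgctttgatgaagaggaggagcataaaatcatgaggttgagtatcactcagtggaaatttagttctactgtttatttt
Klra3: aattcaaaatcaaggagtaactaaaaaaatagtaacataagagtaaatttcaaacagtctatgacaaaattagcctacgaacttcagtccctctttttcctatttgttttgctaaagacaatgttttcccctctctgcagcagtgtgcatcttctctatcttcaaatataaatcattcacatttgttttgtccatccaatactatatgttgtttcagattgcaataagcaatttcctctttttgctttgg
Klrb1c: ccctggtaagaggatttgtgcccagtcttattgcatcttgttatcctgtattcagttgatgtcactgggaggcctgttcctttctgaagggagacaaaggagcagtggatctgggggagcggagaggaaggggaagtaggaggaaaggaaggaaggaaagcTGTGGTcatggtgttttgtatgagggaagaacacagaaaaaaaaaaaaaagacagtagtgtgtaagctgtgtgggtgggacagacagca
Windows of 250 bases before a RefSeq transcript start were found for 9 of the 10 genes. They lay outside the gene's full extent for the 4 shown and overlapped it for the other 5, whose genes begin farther upstream. In a global alignment of 250 bases each, Klra8 and Klra7 shared 195 of 239 aligned bases (81.6%). The 3 pairs among Klra8, Klra7 and Klra3 had 81.6% to 82.8% identity over aligned bases, and the highest among all other pairs of the 9 genes was 67.3%. The Klra3 window aligned with the Klra8 and Klra7 windows over fewer bases than any other pair did, with gaps elsewhere. It shared 138 of 167 aligned bases with Klra8 and 130 of 157 with Klra7. Klrc1 and Klra7, the pair at 67.3%, shared 144 of 214. The letters TGTGGT or ACCACA occurred in 5 of the 9 windows, against 14.2% of 27025 windows of the same length, and in none of the 3 Klra windows. GGTGTGA, a T-box core, or TCACACC occurred in 0 of the 9 windows, against 3.31% of all windows. These matches are descriptions of letters only.

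Values were the authors' scaled probe-set intensities, and precision is limited by having 3 arrays, with no counts behind the values. Probe sets with a mean level above 35.0 were tested on the log2(intensity + 16) scale, on which every fold below is given and which understates changes of dim probe sets. The test was limma across 27022 probe sets with Benjamini-Hochberg adjustment. With 1 WT array, the spread came from the 2 Rptor-null arrays alone, and WT was assumed to vary like them. The Rptor probe sets did not check the deletion, since their place relative to the deleted exons is unknown. The brightest read 353 and 412 in Rptor-null pools against 365 in the WT pool.

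The arrays differed in ways that touch every result below. Signal at the 3′ end relative to the 5′ end of Gapdh was 1.94 and 2.58 in Rptor-null pools against 1.11 in the WT pool, and for beta-actin it was 2.65 and 2.87 against 1.40. Median log2 differences declined with brightness, at 0.063 in the dimmest and -0.13 in the brightest of 5 equal bins of tested probe sets, and this offset was not removed. The brightest bin held the probe sets of Klrd1, Klrk1, Klre1 and Klra8 and the brighter one of Klrb1f. The next bin, with a median of -0.11, held the brighter ones of Klrc1 and Klra7. The part of RNA quality and of this offset in the results was not tested. In bulk samples, fewer cells of a type and less RNA per cell cannot be told apart.

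Across the 10 tested member probe sets, 2 were higher in Rptor-null cells, 1 was lower and 7 did not pass the test. Among all tested probe sets, 2.81% were called higher and 6.11% lower, or 8.92% in either direction. The higher ones were those of Klra8 and Klre1, and the lower one was the dimmer of 2 for Klrb1f. Klra8 alone was at least 2-fold higher in both Rptor-null arrays, a rule met by 0.392% of tested probe sets, and 0 members were at least 2-fold lower, against 0.659%. Both Rptor-null arrays lay above WT in 5 of the 10 (35.8% of all tested) and below WT in the other 5 (43.9% of all tested). The median log2 difference was -0.066 over all 11 member probe sets and 0.023 over all probe sets other than controls, many of them too dim to be tested. The member median is the value of the Klrc2 probe set, itself too dim to be tested. Over tested probe sets alone the median was -0.0082 for the 10 members and -0.029 for all 27022. These calls rest on the mean-variance trend: without it, 1 probe set was called higher and 1 lower among all 27022, and 0 of the members by limma (3 higher and 3 lower at an unadjusted p under 0.05), with an adjusted p of 0.0507 for Klra8. On simulated arrays of 27022 probe sets, a log2 change of 1 was recovered in 90.5% of cases and one of 0.5 in 20.1%, so that differences of the size seen for most members were often missed. Those arrays were drawn with the spread between the Rptor-null arrays and do not test the assumption about WT.

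**Figure D1:**
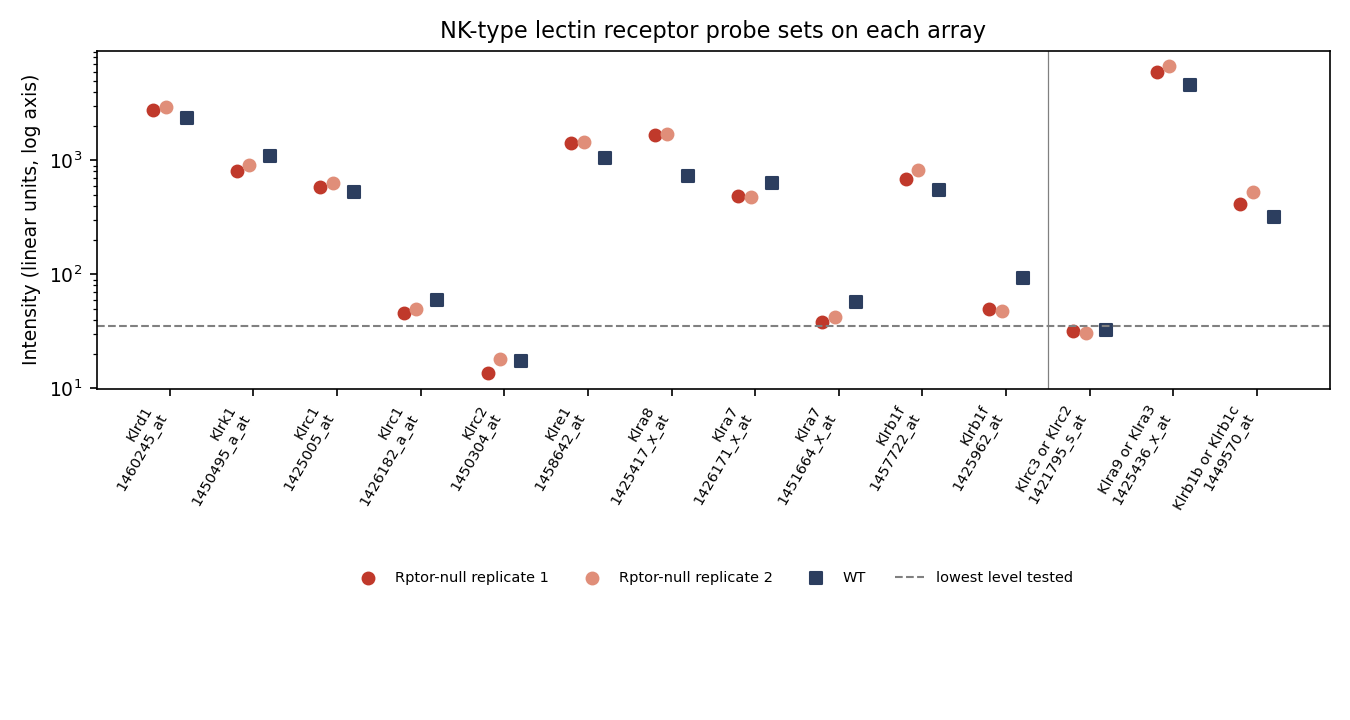
Intensity of each receptor probe set (log axis) on both Rptor-null arrays (circles) and the WT array (square), with the lowest mean level tested as a dashed line at 35.0 and probe sets naming 2 genes right of the vertical line. Klra8 is the member with the widest gap, at 1677 and 1705 in Rptor-null pools against 736 in WT, and Klrc2 lies below the dashed line on all 3 arrays.

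The Ly49 receptors held the largest difference. Klra8 encodes Ly49H, an activating receptor that signals through DAP12 and recognizes a protein of mouse cytomegalovirus. Its probe set read 1677 and 1705 in Rptor-null pools, against 736 in the WT pool. Both Rptor-null values were well above WT and close to each other. The fold was 2.27, with a log2 difference of 1.18 ± 0.10 (SE; 95% interval 0.94 to 1.43; limma adjusted p = 0.0074). Of all tested probe sets, 0.278% had a higher difference. The direction held under the 10 alternatives in which this probe set was tested, with log2 differences of 1.13 to 1.31.

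Klra7 encodes Ly49G, an inhibitory receptor for class I molecules. Its brighter probe set read 489 and 476 in Rptor-null pools against 633 in the WT pool, a log2 difference of -0.38 (95% interval -0.67 to -0.086; limma adjusted p = 0.11). Its dimmer probe set read 38.0 and 42.4 against 57.2, also -0.38 (adjusted p = 0.203). All Rptor-null values of Klra7 lay below WT on both probe sets, and neither passed the test. The Klra8 probe set and both Klra7 probe sets carry the suffix _x_at, which the array maker gives to probe sets that can match other transcripts, and near-identical Ly49 transcripts could share signal there.

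Klra3 encodes Ly49C, an inhibitory receptor, and was read only from a probe set that also names Klra9, the gene of Ly49I. This probe set read 5950 and 6705 in Rptor-null pools against 4596 in the WT pool. Both values lay above WT, with a log2 difference of 0.46 ± 0.099 (SE; limma adjusted p = 0.0373), and the call was lost without a filter on low values or without the variance trend (highest adjusted p = 0.152). This probe set also carries the suffix _x_at, so other Ly49 transcripts could share its signal. It was absent from the alternative without _x_at and _s_at probe sets. Which of the named genes gave the signal cannot be told apart. A probe set for Klra22 and Klra1 read 14.4 and 14.6 against 13.7 and was too dim to be tested.

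**Figure D2:**
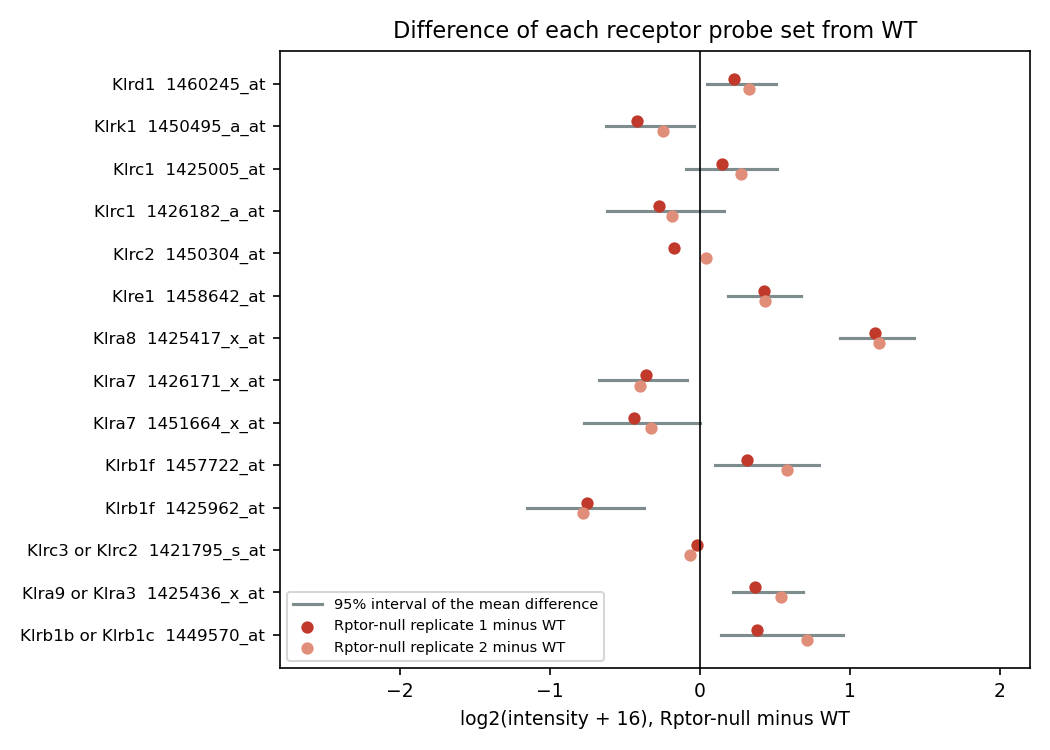
Log2 difference of each receptor probe set from the WT array for Rptor-null replicate 1 and replicate 2 (points), with the 95% interval of the mean difference as a grey line where tested. Klra8 stands at 1.17 and 1.19, while the 2 probe sets of Klrb1f and of Klrc1 lie on opposite sides of 0.

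None of Klrd1, Klrc1 and Klrk1 passed the test by limma. Klrd1, whose product CD94 is the common chain of these heterodimers, read 2754 and 2950 in Rptor-null pools against 2348 in the WT pool. Both lay above WT, with a log2 difference of 0.28 (95% interval 0.049 to 0.51; limma adjusted p = 0.129). The brighter probe set of Klrc1, which encodes the inhibitory chain NKG2A, read 584 and 638 against 525, a log2 difference of 0.21 (adjusted p = 0.363). The dimmer one read 46.3 and 50.0 against 59.2, a difference of -0.23 (adjusted p = 0.45). The Klrc1 probe sets thus lay on opposite sides of WT, and neither passed.

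Klrc2 encodes NKG2C, the activating partner of CD94. Its probe set read 13.6 and 18.2 in Rptor-null pools against 17.3 in the WT pool, was below the tested level on every array, and overlapped between the groups. A second probe set, shared with Klrc3, read 31.8 and 30.4 against 32.4 and was also not tested.

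Klrk1 encodes NKG2D, an activating receptor that signals through DAP10 and, in mouse, also DAP12. It read 814 and 919 in Rptor-null pools against 1091 in the WT pool. Both values lay below WT, with a log2 difference of -0.33 (95% interval -0.62 to -0.036; limma adjusted p = 0.155). Klre1, whose product pairs with the Klri receptors in mouse, read 1430 and 1436 against 1058. These values lay above WT with a log2 difference of 0.43 ± 0.10 (SE; adjusted p = 0.0487), or 1.35-fold. The Klre1 call was close to the threshold and was lost under 4 alternatives, with adjusted p between 0.0509 and 0.143. Klrd1 and Klre1 thus read above WT and Klrk1 below it on both Rptor-null arrays, although the 3 genes are neighbours in the complex.

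In the NKR-P1 group, the 2 probe sets of Klrb1f gave conflicting readings. Klrb1f encodes NKR-P1F, which binds a Clr protein. Its brighter probe set read 689 and 831 in Rptor-null pools against 551 in the WT pool, a log2 difference of 0.45 (95% interval 0.10 to 0.79; limma adjusted p = 0.111). Its dimmer probe set read 49.4 and 48.1 against 93.9, a log2 difference of -0.76 ± 0.17 (SE; adjusted p = 0.0379), or 1.70-fold lower in Rptor-null cells. The 2 probe sets lay on opposite sides of WT on both Rptor-null arrays, and their mean had a log2 difference of -0.16 (adjusted p = 0.473), so no direction is given for the gene. Klrb1c encodes NK1.1, the antigen used to identify NK cells in this strain. It was read only from a probe set that also names Klrb1b, at 417 and 531 against 316. The log2 difference of this probe set was 0.55 (95% interval 0.14 to 0.96, limma adjusted p = 0.0983). Among the alternatives, it passed only after median centring (limma adjusted p = 0.036). Which of the named genes gave this signal cannot be told apart.

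**Figure D3:**
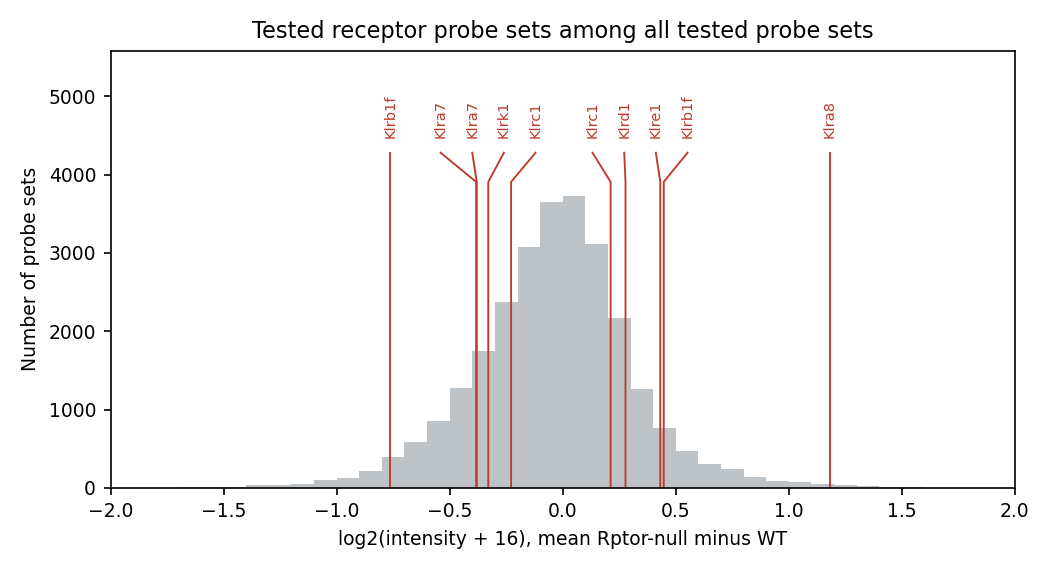
Number of tested probe sets by log2 difference (grey bars of width 0.1), with red lines at the 10 tested receptor probe sets. Klra8, at 1.18, is out in the right tail, and the other 9 lie between -0.76 and 0.45.

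Other receptors of the family and neighbours in the complex were taken from a list of 19 genes, of which 11 had a probe set and 7 were tested. Among these 7, 1 was higher, 0 were lower and 6 did not pass by limma, with 1 higher and 1 lower at an unadjusted p under 0.05. The higher one was Klrb1b, an inhibitory NKR-P1 receptor, at 165 and 197 in Rptor-null pools against 96.7 in the WT pool (log2 difference 0.80, limma adjusted p = 0.0426). Its other tested probe sets had mean differences of 1.13 (adjusted p = 0.0427) and 0.31 (adjusted p = 0.536). The last of these lay on either side of WT, at -0.0080 in Rptor-null replicate 1 and 0.63 in replicate 2. The Klrb1b call at 0.80 was lost without a filter and without the trend. Its probe set carries the suffix _s_at and was absent from the alternative without _x_at and _s_at probe sets. Klrg1, an inhibitory receptor for cadherins, read 1107 and 789 against 1470 (log2 difference -0.64, adjusted p = 0.0878). Klrg2 and Klra2 had differences of 0.35 and 0.21 and did not pass. Klra1, Klra5, Klra17 and Klrc3 were below the tested level. For this list and those that follow, calls stand beside 2.81% higher and 6.11% lower among all tested probe sets. In a fit with the brightest probe set per gene, 500 of 12721 genes were higher and 1411 lower.

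Adaptors and signalling partners had 2 higher, 2 lower and 8 not past the test of 12 tested. Tyrobp, the gene of DAP12, read 11096 and 12200 in Rptor-null pools against 8243 in the WT pool (log2 difference 0.50, limma adjusted p = 0.0222). Fcer1g, the Fc receptor gamma chain, read 5759 and 6316 against 4140 (0.54, adjusted p = 0.021). Both adaptors lay above WT on both arrays, and both are also abundant in myeloid cells. Hcst, the gene of DAP10, named here as the adaptor of NKG2D and chosen after its values were seen, read 1527 and 1666 against 1847 (-0.21, adjusted p = 0.282). The lower ones were Cd247, the CD3 zeta chain (1713 and 1709 against 2563; -0.58, adjusted p = 0.019), and Sh2d1a, the SLAM adaptor SAP (854 and 938 against 1527; -0.76, adjusted p = 0.0159). The 3 tested probe sets of Cd247 ranged from -2.34 to -0.58, and their mean had a log2 difference of -1.17 (limma adjusted p = 0.00298). The median log2 difference over these 12 was -0.13, beside -0.029 over all tested probe sets.

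Ligands of these receptors had 0 higher, 2 lower and 3 not past the test of 5 tested, out of 10 with a probe set (limma; 0 higher and 3 lower at an unadjusted p under 0.05). The class I genes H2-D1 and H2-K1 were the lower ones. H2-D1 read 16825 and 17325 in Rptor-null pools against 24268 in the WT pool (log2 difference -0.51, limma adjusted p = 0.0129), and H2-K1 read 22528 and 23191 against 29990 (-0.39, adjusted p = 0.0214). The 7 tested probe sets of H2-D1 ranged from -0.52 to 0.098, those of class I genes can share signal, and the H2-D1 call did not survive averaging over its probe sets (adjusted p = 0.221). B2m, the light chain of class I, and Clec2i, a Clr ligand of NKR-P1 receptors, had differences of -0.20 and -0.18 and did not pass. The NKG2D ligands Ulbp1 and H60c were below the tested level. The lists of family members, partners and ligands share 1 gene, Clec2d, with a difference of -0.064.

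**Figure D4:**
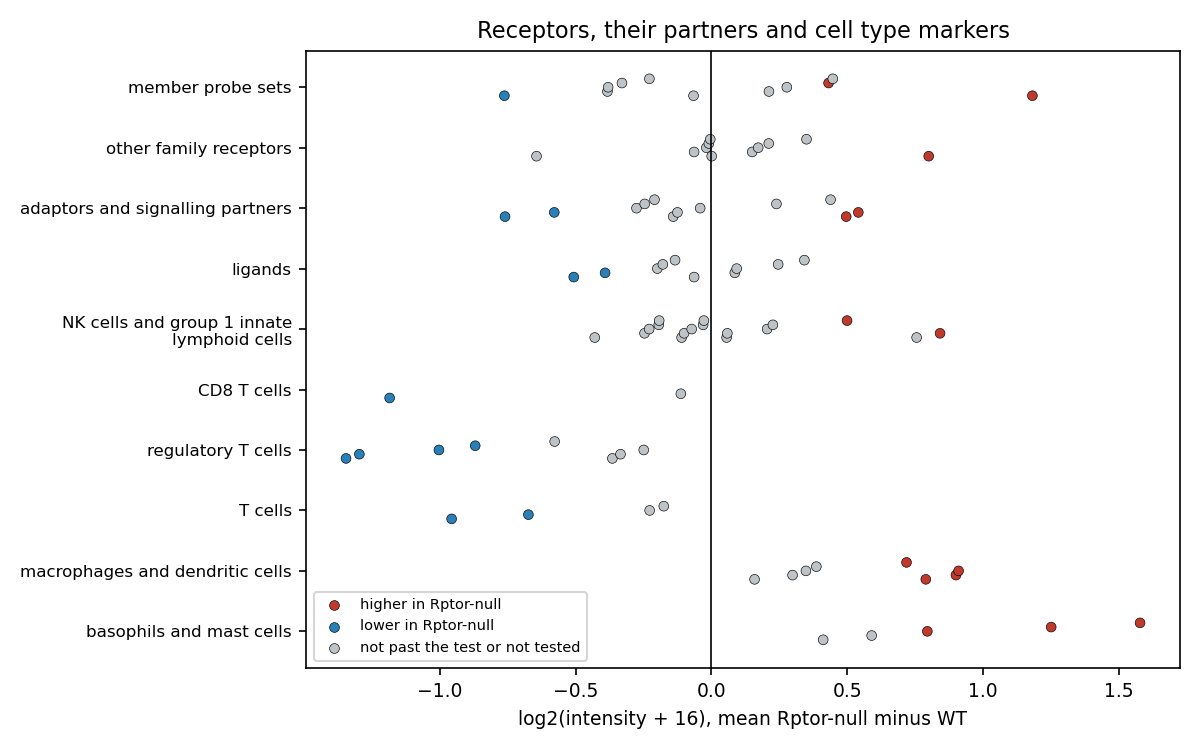
Mean log2 difference from WT of each member probe set (top row) and of genes in the partner and marker lists, with 1 probe set per gene; red marks a call higher in Rptor-null, blue a call lower, grey no call. Markers of regulatory T cells and T cells lie below 0, those of macrophages and basophils above 0, and those of NK cells on both sides.

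Markers of other cells were measured beside the receptors. All 17 markers of NK cells and group 1 innate lymphoid cells were above the tested level. Their summed level was 32207 and 36006 in Rptor-null pools against 32726 in the WT pool. Most of this sum is Gzma and Ccl5 (7780 and 9222 in Rptor-null pools against 9681 in the WT pool), so it says little of the other markers. Of the 17, 2 were higher, 0 lower and 15 not past the test, with a median log2 difference of -0.030 (limma; 3 higher and 2 lower at an unadjusted p under 0.05). The higher ones were Eomes, a transcription factor of NK cells (1309 and 1381 against 946; limma adjusted p = 0.0371), and Fcgr3, an Fc receptor that myeloid cells also carry (1487 and 1495 against 825; adjusted p = 0.0111). The Eomes call was lost without a filter (adjusted p = 0.0653), without the trend (0.114) and with the mean of its probe sets (0.0979), the other of which had a log2 difference of 0.18. Ncr1, which encodes the NK receptor NKp46, read 299 and 285 in Rptor-null pools against 398 in the WT pool (-0.43, adjusted p = 0.109), below WT where Klra8 was above. Cd244a lay above WT (436 and 616 against 300; log2 difference 0.76, limma adjusted p = 0.0688) and did not pass. Nkg7 (2387 and 2469 against 2882) and Gzma (12303 and 14214 against 11301) did not pass either. Of the 17, 5 lay above WT and 6 below WT on both Rptor-null arrays. Which cells in the pools carried the receptors was not tested.

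Among markers of the labelled cell type, all 8 had both Rptor-null values below WT, with 4 called lower and a summed level of 11626 and 9899 in Rptor-null pools against 17877 in the WT pool. Foxp3, the defining transcription factor, read 587 and 423 against 752 (limma adjusted p = 0.119), and Tnfrsf18, the gene of the sort marker GITR, 1549 and 1453 against 3837 (adjusted p = 0.0071). General T cell markers had 2 lower of 4, with Cd3g at 4657 and 4751 against 9143 (adjusted p = 0.0074). Of the CD8 markers, Cd8b1 read 51.6 and 47.3 against 133 (adjusted p = 0.0143), and Cd8a read 38.8 and 45.0 against 46.5 (-0.11, adjusted p = 0.736). Their summed level was 90.4 and 92.3 against 179. Markers of macrophages and dendritic cells had 4 higher of 8 (Adgre1, Csf1r, Cd14 and C1qa), with a summed level of 35522 and 40595 against 27675. Most of this sum is Csf1r and Lyz2, and Lyz2 was not called (16033 and 17432 against 14972, limma adjusted p = 0.278). Markers of basophils and mast cells had 3 higher of 5 (Ms4a2, Fcer1a and Gata2), with a summed level of 1770 and 2067 against 1040. The 2 tested probe sets of Ms4a2 had log2 differences of 1.58 and 0.13. Among all tested probe sets, 2.81% were called higher and 6.11% lower. Summed levels were 170 and 186 in Rptor-null pools against 178 in WT for gamma-delta and NKT cells. Only 2 of the 5 markers listed for these cells, Zbtb16 and Sox13, had a probe set, so this sum says little of them. Summed levels were 12290 and 14629 against 13681 for B cells, and 19442 and 19733 against 20896 for neutrophils. There were 0 calls by limma in these 3 lists, with 1 neutrophil marker lower at an unadjusted p under 0.05. The B cell sum is nearly all Ighm, whose brightest probe set read 11900 and 14220 in Rptor-null pools against 13183 in the WT pool, while the log2 differences of its 8 tested probe sets spanned -2.91 to -0.019. Cd79b (209 and 196 against 264; adjusted p = 0.204) and Ms4a1 (130 and 136 against 171; adjusted p = 0.278) lay below WT on both arrays and did not pass. No marker was at 0 on any array, but neither was any other probe set, so this does not show that a marker was detected. The lowest intensities on the 3 arrays were 5.94 to 6.00. The part of these other cells in the receptor differences was not tested.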

How the data were processed

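Affymetrix arrays were read from 1 deposited table of linear probe-set intensities, already scaled by the authors; per the submitters' processing notes the tool was MAS5, and the background, summary and scaling steps are not given in the sources used here. The lowest values, 6.00 and 5.97 on the Rptor-null arrays and 5.94 on the WT array, lay close together. The summary method is not settled, and whether dim intensities near the filter level stand above background is unknown. Per the labels' protocols, biotinylated cRNA was made from 100 ng of total RNA. Median intensities were 55.0 and 54.9 on the Rptor-null arrays and 52.8 on the WT array. The platform annotation named 1 gene for 34945 probe sets, several for 932 and none for 9160, beside 64 controls. Probe sets above the 40th percentile of the mean of both group means were tested in R 4.3.3 with limma 3.58.1 (lmFit, eBayes with trend; 1 residual and 5.85 prior degrees of freedom; two-sided; threshold 0.05). Each probe set was fitted on its own, and the brightest stood for a gene of the partner and marker lists. Named genes were all members, up to 4 genes per partner list by size of difference among those on 1 side of WT, and markers. The markers, Hcst and the dim or untested list genes were picked after their values were seen. The fit was tested on 10 simulated sets with 200 changed probe sets each, where 5.45% of calls were false. Promoters were aligned with Biopython 1.88 (match 1, mismatch -1, gap opening -3, extension -0.5). The tried alternatives numbered 13. Members, lists and motifs were chosen with earlier results of these data known. The replicates are separate pools, per the labels.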

Additional observations from a re-analysis of the deposited data

Results flagged for a closer look

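Control probe sets, which enter no comparison above, were brighter on both Rptor-null arrays than on the WT array. The 24 probe sets for labelling controls, bacterial transcripts that the array maker's protocol adds to the RNA, had a median ratio of 7.85 in Rptor-null replicate 1 and 5.07 in replicate 2 to WT. The 18 probe sets for hybridization controls had median ratios of 4.83 and 3.50. All 24 and all 18 were higher in both Rptor-null arrays. The part of this difference in the receptor values was not tested.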

How the results depend on the processing

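Only 3 arrays limit the precision, and no paired analysis was possible because the WT group has 1 sample and shares fewer than 2 replicate numbers with the Rptor-null group. Leaving out a Rptor-null array gave values with no test, and the lone array was then all there was to set against WT. The cause of the changes below was not tested unless fewer probe sets enter. Member probe sets called higher, 2 in the main setting, were 1 without a filter or with robust eBayes, and 0 without the trend or without _x_at and _s_at probe sets, where Klra8 and Klra7 are absent and 0 members were 2-fold higher. The 1 called lower became 0 without a filter, with the 60th percentile filter (which leaves out that probe set), per gene by either rule, and without the trend. The median member difference over 11 probe sets, -0.066, is the value of the Klrc2 probe set, too dim to be tested. With 1 Rptor-null array left out it was -0.17 to 0.039, again the values of Klrc2. It was 0.073 without _x_at and _s_at probe sets. With the brightest probe set per gene it was 0.28, over the 7 tested genes, which leave out Klrc2. Over the 10 tested probe sets of the main setting it was -0.0082. With the mean of probe sets, Klrc1 had -0.0082 and Klrb1f -0.16 (adjusted p = 0.976 and 0.473), against 0.21 and 0.45 on the brighter probe set. After median centring 3 members were called higher, Klrb1f among them.

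Over all 27022 tested probe sets, 759 were higher and 1651 lower. The counts were 454 and 969 without a filter, where 45037 probe sets were tested. They were 882 and 915 after quantile normalization, 1435 and 1882 after median centring, and 1 and 1 without the trend. Per gene they were 500 higher with the brightest and 467 with the mean of probe sets. Both per-gene settings tested 12721 genes, so their counts, the 2-fold ones below included, are not comparable with those over probe sets. Higher calls made up 31.5% in the main setting, 49.1% after quantile normalization and 43.3% after median centring. At least 2-fold in both arrays were 106 higher and 178 lower; with a pseudocount of 1, 171 were higher; with 64, 53 and 78; with the brightest probe set, 50 and 76; with the mean, 27 and 61; and with 1 array left out, 217 to 236 and 271 to 298.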
